A study of Arabidopsis thaliana with 6 samples.

Results

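The enzymes of the Calvin cycle and of photorespiration were followed through 35 nuclear genes of Arabidopsis thaliana, chosen by gene identifier from the 33532 identifiers of the deposited expression table, where all 35 were found. They comprise 20 genes of the Calvin cycle, among them 4 for the Rubisco small subunit and 2 for the regulator CP12, and 15 genes of photorespiration from plastid, peroxisome and mitochondrion. RNA was taken from whole wild-type seedlings of Col-0, the laboratory strain of the reference genome. The 3 doxycycline libraries came from seedlings that spent 10 days on solidified 1/2 MS, a mineral medium for plants, with 5 µg/mL of the antibiotic, and the 3 control libraries from seedlings kept as long on that medium alone. The title of the series asks how the seedling transcriptome responds when mitochondrial translation is impaired. Doxycycline is a tetracycline that binds ribosomes of the bacterial type, which plants have in mitochondria and also in plastids. Values are FPKM, fragments of a gene divided by the length of its transcript and by what the library mapped in all, so that levels of different genes can be set side by side, and values of a group are given in the order of libraries 1 to 3.

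In the Calvin cycle, Rubisco fixes carbon dioxide onto ribulose bisphosphate, the products are phosphorylated and reduced to triose phosphate, and the acceptor is rebuilt by aldolases, phosphatases, transketolase, isomerase and epimerase steps that end at phosphoribulokinase. When Rubisco takes oxygen instead, phosphoglycolate is formed, and photorespiration recovers its carbon through plastid, peroxisome and mitochondrion, where glycine decarboxylase and serine hydroxymethyltransferase turn glycine into serine. Most of these genes are read in green tissue and in the light, the small subunits of Rubisco belong to the most abundant transcripts of leaves, and every enzyme named here is encoded in the nucleus, apart from the large subunit of Rubisco.

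Of the 18 genes whose groups did not overlap, 15 stood higher with doxycycline (9.59% of all genes tested did) and 3 lower (25.7% of all genes did), and the genes of one complex lay on both sides. The balance moved with scaling, to 14 higher and 1 lower by median-of-ratios scaling and to 10 higher and 4 lower by quantile normalization. No gene passed the adjusted test on the deposited scale. In the mitochondrion, both P-protein genes of glycine decarboxylase lay below every control with doxycycline, each at a log2 difference of -0.95, while the T-protein gene AT1G11860 (0.77), the H-protein gene GDCH (0.79) and the hydroxymethyltransferase gene SHM1 (0.70) lay above every control. In the Calvin cycle 4 of the 5 genes of the reduction step, 4 of the 8 of regeneration and both CP12 genes lay above every control, as did the plastid genes GS2 for glutamine synthetase (0.90) and AT1G80380 for glycerate kinase (0.97). Rubisco activase, phosphoribulokinase, the plastid aldolases and all 6 peroxisomal genes overlapped between the groups, as did 12321 of all 19035 genes tested. Of the 4 Rubisco small subunit genes only RBCS2B separated the groups, at a lower level with doxycycline.

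The control libraries were not alike. Across all genes tested the Pearson correlation of log2 values between libraries was 0.988 to 0.992 among the doxycycline libraries and 0.831 to 0.895 among controls, and control 1 correlated with the doxycycline libraries at 0.961 to 0.964. These correlations are across genes, which are not independent replicates. Among the 34 member genes that passed a mean of 1 FPKM, control 2 was the lowest control for 20, control 1 for 12 and control 3 for 2. Over all genes tested, control 2 was the lowest for 16.3%, control 1 for 62.1% and control 3 for 21.6%. The 8 green-tissue markers, all of them detected in every library, summed to 57742 to 61106 FPKM with doxycycline and to 67159, 13047 and 22265 FPKM in controls 1 to 3. The 10 root markers summed to 13.8 to 24.4 FPKM with doxycycline and to 9.76, 27.5 and 50.1 FPKM in controls 1 to 3, and the 18S ribosomal RNA gene AT3G41768 stood at 1356 to 1833 FPKM with doxycycline against 954, 10573 and 457 FPKM. Of the green-tissue markers 1 lay above every control and 0 below, and of the 7 root markers tested 0 did either. The 5 vascular and guard cell markers summed to 89.4, 89.4 and 81.2 FPKM with doxycycline and to 94.9, 110.4 and 136.8 FPKM in controls, so that these sums did not overlap. Of these 5, AHA3 (AT5G57350), for a proton pump of the phloem, lay below every control (log2 difference -0.73), and 0 lay above. The other 4 overlapped between the groups, and the log2 differences of the 5 ran from -0.73 to 0.13. These marker counts stand beside 9.59% of all genes above every control and 25.7% below. The part of these markers in the results that follow was not tested. In RNA of whole seedlings, fewer cells of a type and less RNA per cell cannot be told apart. The series' design text speaks of biological replicates but does not tell whether these were separate plates or harvests, so p-values here cover the spread among 6 libraries and nothing wider.

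With limma on log2(FPKM + 1) and Benjamini-Hochberg adjustment over all 19035 genes tested, 0 members passed an adjusted p of 0.05, as did 0% of all genes, and no member had an adjusted p below 0.128. Before adjustment, 8 members reached 0.05 on the higher side (6.83% of all genes tested) and 3 on the lower side (18.8% of all genes). Every doxycycline library lay above every control in 15 of the 34 members, against 9.59% of all genes, and below every control in 3, against 25.7% of all genes. None of these 18 members was separated by 2-fold or more between the closest libraries, which 0.179% of all genes were upward and 0.457% downward. The median log2 difference of the members was 0.22, while that of all genes tested was -0.29. Since the members were chosen with results of these data known, these counts describe the genes and are not a test. The 35th gene, PGLP1, was left out by the filter on low values.

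**Figure D1:**
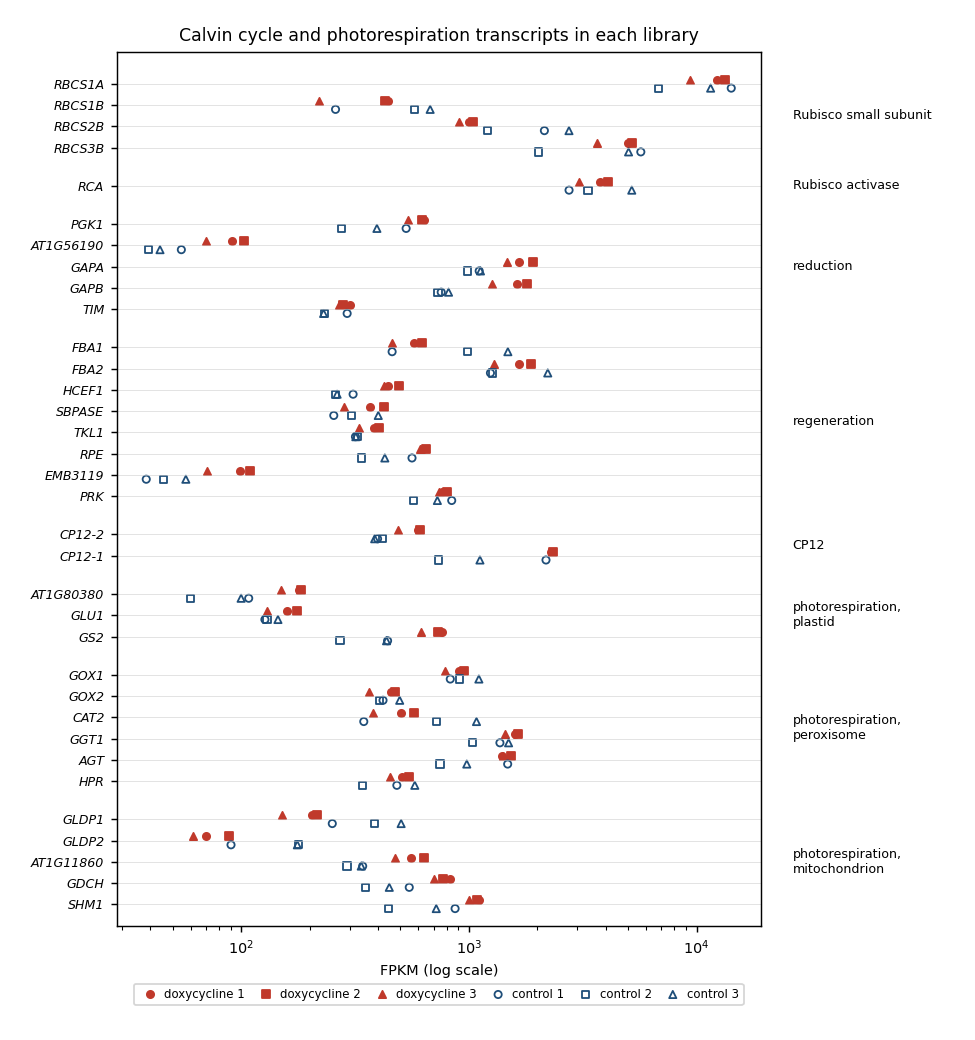
FPKM of the 34 tested Calvin cycle and photorespiration genes in each library, on a log scale, with genes ordered by role. Filled red symbols are the 3 doxycycline libraries and open blue symbols the 3 control libraries. The red symbols all lie right of the blue ones for 15 genes and all left of them for RBCS2B, GLDP1 and GLDP2.

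By their mean over the libraries, the small subunit genes RBCS1A and RBCS3B were the most abundant of the 35. RBCS1A (AT1G67090) stood at 12273, 13338 and 9318 FPKM with doxycycline, against 14208, 6793 and 11535 FPKM in controls. RBCS3B (AT5G38410) stood at 5006, 5197 and 3647 FPKM with doxycycline, against 5694, 2022 and 5031 FPKM in controls. In both genes the doxycycline values fell within the range of the controls, of which control 2 was by far the lowest, and both differences turn negative after quantile normalization. RBCS2B (AT5G38420) stood at 999, 1047 and 908 FPKM with doxycycline, against 2148, 1207 and 2754 FPKM in controls. All 3 doxycycline values of RBCS2B were below the lowest control, a log2 difference of -0.97 (SE 0.388, limma unadjusted p = 0.0407, adjusted p = 0.182). After median-of-ratios scaling its groups overlapped. RBCS1B (AT5G38430), the least abundant of the 4, stood at 439.9, 429.8 and 219 FPKM with doxycycline, against 259.9, 576 and 677 FPKM in controls, and its groups overlapped.

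The coding sequences of RBCS1B and RBCS2B were 97.2% identical and those of RBCS2B and RBCS3B 94.3%, against 90.1% between RBCS1A and RBCS2B, so part of the reads may have been assigned to the wrong copy. RBCS1B and RBCS2B are direct neighbours on chromosome 5, and RBCS3B follows on the same strand with 2 genes between. The ratio of RBCS2B to RBCS3B does not depend on a scaling factor per library, though quantile normalization can change it. On the deposited scale it was 0.200, 0.201 and 0.249 in doxycycline libraries and 0.377, 0.597 and 0.547 in controls 1 to 3. Every doxycycline ratio was below every control ratio. This ratio was chosen after the values were seen.

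The 250 bases before the annotated start of RBCS2B are shown because it is the 1 small subunit gene whose groups did not overlap, and to show the G-box and I-box letters known from light-regulated small subunit genes. The window is chr5:15382072-15382321 of RefSeq assembly TAIR10.1, read on the minus strand from 5′ to 3′, and capitals mark the G-box CACGTG and the I-box GATAAG on either strand.
RBCS2B: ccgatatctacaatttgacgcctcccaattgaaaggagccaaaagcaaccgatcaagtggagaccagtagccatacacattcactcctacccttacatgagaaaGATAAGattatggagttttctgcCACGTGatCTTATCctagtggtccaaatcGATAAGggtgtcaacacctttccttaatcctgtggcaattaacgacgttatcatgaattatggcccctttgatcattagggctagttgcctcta

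This window holds 1 G-box with its outer edge 123 bases before the start, and I-boxes at 146, 115 and 94 bases. Of the 35 member windows, 5 held a G-box and 5 an I-box, 14.3% in each case, against 6.49% and 12.3% of the 27443 windows of protein-coding genes. No match of the motifs overlapped another in RBCS2B. RBCS3B has several annotated starts, and the window before the start nearest to its coding sequence also held 1 G-box and 3 I-boxes, as in RBCS2B, whereas the window before its outermost start held none. In the same way the nearest-start windows of RBCS1A, with 1 G-box and 2 I-boxes, and of RBCS1B, with 2 I-boxes, held these letters and their outermost windows did not, so the letters are not particular to RBCS2B. With the nearest start in place of the outermost one, 9 of the 35 windows held a G-box and 8 an I-box, against 6.68% and 12.6% of all. A match is a description of the letters and says nothing of binding.

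RCA (AT2G39730), for Rubisco activase, which frees the active site of Rubisco from bound sugar phosphates, stood at 3777, 4086 and 3063 FPKM with doxycycline, against 2756, 3339 and 5196 FPKM in controls. All its doxycycline values lay within the control range. The plastid-encoded large subunit identifier ATCG00490 stood at 21.0, 17.6 and 8.56 FPKM with doxycycline, against 21.8, 209 and 12.8 FPKM in controls. How plastid transcripts were selected for the libraries is not given in the sources used here, so its low level beside the small subunits cannot be read as a ratio of the subunits.

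In the reduction step, 4 of the 5 genes lay above every control. GAPB (AT1G42970), for the regulatory B subunit of plastid glyceraldehyde-3-phosphate dehydrogenase, stood at 1627, 1796 and 1269.9 FPKM with doxycycline, against 757, 732 and 815 FPKM in controls. Its controls lay close together, so that the difference was nearly the same against each of them, at 1.03, 1.08 and 0.92 log2 against controls 1 to 3 (limma over all libraries 1.01, SE 0.285, adjusted p = 0.138). GAPA (AT3G26650), for the A subunit of the same enzyme, stood at 1654, 1912 and 1476 FPKM with doxycycline, against 1111, 985 and 1126 FPKM in controls, a log2 difference of 0.64 (SE 0.292, adjusted p = 0.213). The doxycycline values of GAPA no longer cleared every control after quantile normalization, while those of GAPB did.

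Of the phosphoglycerate kinases, PGK1 (AT3G12780) stood at 637, 625 and 543 FPKM with doxycycline, against 531, 276 and 395 FPKM in controls. Its lowest doxycycline value lay just above control 1, and the groups overlapped after either rescaling. AT1G56190, which RefSeq names a phosphoglycerate kinase family protein, was less abundant, at 91.5, 103 and 70.3 FPKM with doxycycline and 54.7, 39.4 and 44.1 FPKM in controls, a log2 difference of 0.92 (SE 0.218, adjusted p = 0.128). This was the lowest adjusted p of all members. TIM (AT2G21170), for plastid triose phosphate isomerase, stood at 302, 279 and 269 FPKM with doxycycline, against 292, 232 and 230.4 FPKM in controls, and its groups overlapped.

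Among the 8 genes of the regeneration phase, 4 lay above every control and 4 overlapped. HCEF1 (AT3G54050), for the plastid fructose bisphosphatase, stood at 442, 492 and 424 FPKM with doxycycline, against 310.5, 261 and 264 FPKM in controls, a log2 difference of 0.70 (SE 0.206, adjusted p = 0.139). EMB3119 (AT3G04790), for a ribose 5-phosphate isomerase, stood at 98.6, 109.9 and 71.2 FPKM with doxycycline, against 38.3, 45.7 and 57.2 FPKM in controls, a log2 difference of 0.97 (SE 0.239, adjusted p = 0.131). Both genes stayed above every control after median-of-ratios and quantile rescaling. RPE (AT5G61410), for ribulose-5-phosphate epimerase, stood at 630.2, 647 and 612 FPKM with doxycycline, against 563, 337 and 428 FPKM in controls. TKL1 (AT3G60750), for transketolase, was nearly flat, at 384, 403 and 328 FPKM against 318, 326 and 319 FPKM, and its lowest doxycycline value exceeded the highest control by 0.01 log2. RPE overlapped after quantile normalization and TKL1 after both rescalings.

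The other regeneration genes gave no separation. The plastid aldolase gene FBA1 (AT2G21330) stood at 577, 625 and 459 FPKM with doxycycline, against 461, 988 and 1485 FPKM in controls, and FBA2 (AT4G38970), for another plastid aldolase, at 1668, 1868 and 1288 FPKM against 1245, 1275 and 2222 FPKM. For FBA1 the doxycycline mean lay 0.25 log2 above that of control 1 but differed by -0.85 and -1.43 log2 from controls 2 and 3. SBPASE (AT3G55800), for sedoheptulose bisphosphatase, stood at 369, 425 and 284 FPKM with doxycycline, against 255, 305 and 400.4 FPKM in controls. PRK (AT1G32060), for phosphoribulokinase, stood at 763, 803 and 741 FPKM with doxycycline, against 841, 572 and 728 FPKM in controls, with a log2 difference of 0.13 that changes sign after quantile normalization.

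CP12 proteins bind phosphoribulokinase and glyceraldehyde-3-phosphate dehydrogenase into an inactive complex in the dark. CP12-2 (AT3G62410) stood at 601, 609.5 and 491 FPKM with doxycycline, against 398, 418 and 386 FPKM in controls, above every control on the deposited scale and after both rescalings. CP12-1 (AT2G47400) was even across doxycycline libraries, at 2291, 2335 and 2327 FPKM, and uneven across controls, at 2183, 735 and 1119 FPKM. Its margin over control 1 was 0.07 log2 between the closest libraries, and the groups overlapped after quantile normalization.

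**Figure D2:**
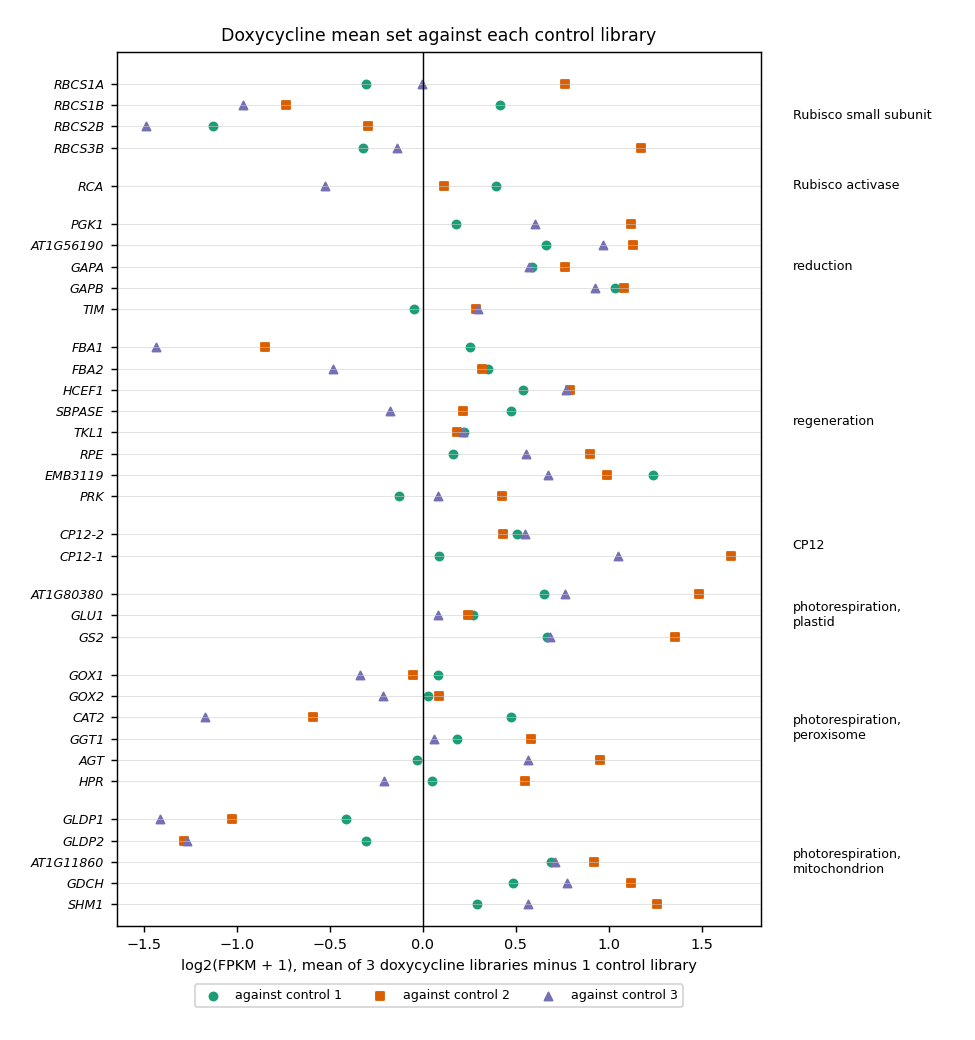
Difference between the mean of the 3 doxycycline libraries and each control library in turn, on the log2(FPKM + 1) scale, for the 34 tested genes ordered by role. Points of 1 gene share the doxycycline libraries and differ only in the control used. GAPB has its 3 points between 0.92 and 1.08, while FBA1 spreads from -1.43 to 0.25.

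Photorespiration in the plastid begins with phosphoglycolate phosphatase and ends with glycerate kinase, and the ammonia set free in the mitochondrion is taken up again by glutamine synthetase and glutamate synthase. AT1G80380, which RefSeq describes as a glycerate kinase of this cycle, stood at 179, 184 and 149.6 FPKM with doxycycline, against 108, 60.2 and 100.045 FPKM in controls, a log2 difference of 0.97 (SE 0.262, adjusted p = 0.134). GS2 (AT5G35630), for plastid glutamine synthetase, stood at 760.2, 729 and 615 FPKM with doxycycline, against 440.0, 272 and 435 FPKM in controls, a log2 difference of 0.90 (SE 0.279, adjusted p = 0.142). Both genes cleared every control under each scaling. GLU1 (AT5G04140), for the ferredoxin-dependent glutamate synthase that works with GS2, stood at 159, 177 and 129.6 FPKM with doxycycline, against 127, 129.9 and 145 FPKM in controls, and the groups overlapped. The ratio of GS2 to GLU1, chosen after the values were seen, was 4.79, 4.13 and 4.74 in doxycycline libraries and 3.46, 2.096 and 2.998 in controls 1 to 3. Every doxycycline ratio was above every control ratio.

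PGLP1 (AT5G36700), for phosphoglycolate phosphatase, was listed at 0.207, 0.205 and 0.380 FPKM with doxycycline, against 0.0630, 0.197 and 0 FPKM in controls. Its coding sequence was identical over all 1089 bases to that of AT5G36790, which was listed at 2.73, 8.40 and 2.73 FPKM with doxycycline and 2.29, 3.45 and 2.84 FPKM in controls. Values of identical copies depend on how shared reads were handled, which the sources used here do not give, so the level of this enzyme's transcript is uncertain and no difference is drawn from it.

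All 6 peroxisomal genes overlapped between the groups, as did 12321 of all 19035 genes tested. The glycolate oxidase genes GOX1 (AT3G14420) and GOX2 (AT3G14415), neighbours with 90.9% identical coding sequences, stood at 783 to 952 and 365 to 475 FPKM with doxycycline and at 829 to 1107 and 404 to 497 FPKM in controls. Their log2 differences of -0.10 and -0.03 turn positive after median-of-ratios scaling. CAT2 (AT4G35090), for the leaf catalase that removes the hydrogen peroxide of glycolate oxidation, stood at 506, 575 and 381 FPKM with doxycycline, against 346, 723 and 1081 FPKM in controls. The doxycycline values of CAT2 lay above control 1 and below both other controls. GGT1 (AT1G23310), for glutamate:glyoxylate aminotransferase, stood at 1595, 1645 and 1437 FPKM with doxycycline and 1370.1, 1040.2 and 1496 FPKM in controls, and HPR (AT1G68010), for hydroxypyruvate reductase, at 511, 546 and 449.7 FPKM against 483, 342 and 579 FPKM. AGT (AT2G13360), for the peroxisomal aminotransferase that uses serine, stood at 1402, 1526 and 1417 FPKM with doxycycline, against 1482, 748 and 979.9 FPKM in controls, so that control 1 lay among the doxycycline values. Of these differences, those of GGT1 and HPR turn negative after quantile normalization.

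In the mitochondrion, none of the 5 genes overlapped, while 12321 of all 19035 genes tested did, and the 5 lay on both sides. GLDP1 (AT4G33010), for the P-protein that decarboxylates glycine, stood at 205, 216 and 152 FPKM with doxycycline, against 252, 384 and 505 FPKM in controls, a log2 difference of -0.95 (SE 0.307, adjusted p = 0.148). GLDP2 (AT2G26080), for the other P-protein, stood at 70.5, 89.0 and 61.6 FPKM with doxycycline, against 90.3, 178 and 177 FPKM in controls, a log2 difference of -0.95 (SE 0.310, adjusted p = 0.149). GLDP1 lay below every control under each scaling, while GLDP2 cleared control 1 by 0.02 log2 only and overlapped after median-of-ratios scaling. Their coding sequences were 84.8% identical, and GLDP1 made up 72.1% ± 1.96 of their summed FPKM with doxycycline and 72.0% ± 3.19 in controls (SD, n = 3 each).

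AT1G11860, for the T-protein that passes the one-carbon unit to tetrahydrofolate, stood at 559, 635 and 474 FPKM with doxycycline, against 342, 292 and 337 FPKM in controls, a log2 difference of 0.77 (SE 0.226, adjusted p = 0.139). GDCH (AT2G35370), for the lipoic acid carrying H-protein, stood at 827, 772 and 704 FPKM with doxycycline, against 548, 353 and 448 FPKM in controls, a log2 difference of 0.79 (SE 0.261, adjusted p = 0.150). SHM1 (AT4G37930), for the serine hydroxymethyltransferase that works beside the complex, stood at 1106, 1089 and 999.5 FPKM with doxycycline, against 871, 445 and 719.7 FPKM in controls (log2 difference 0.70, SE 0.324, adjusted p = 0.216). All 3 genes lay above every control under each scaling. AT1G32470, a gene outside the 35 whose coding sequence was 87.6% identical to GDCH, stood at 685, 629 and 584 FPKM with doxycycline, against 406, 233 and 318 FPKM in controls (log2 difference 1.02, SE 0.271, adjusted p = 0.134). The L-protein gene mtLPD1 (AT1G48030), for lipoamide dehydrogenase and named after its values were seen, stood at 109, 123 and 91.3 FPKM with doxycycline, against 98.5, 114 and 109.5 FPKM in controls, and did not separate the groups. AT2G35120, which RefSeq places in the glycine cleavage complex, with a lipoyl-binding site as in the H-protein, and mtLPD2 (AT3G17240), for a further L-protein, both named after their values were seen, overlapped between the groups. AT2G35120 stood at 31.8, 26.1 and 38.9 FPKM with doxycycline, against 33.3, 122 and 52.4 FPKM in controls, and mtLPD2 at 26.2, 21.0 and 25.4 FPKM against 24.2, 45.3 and 39.5 FPKM.

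Ratios to GLDP1 within a library do not depend on a scaling factor per library, though quantile normalization can change them. They do not tell on which side of the controls either gene lies. The ratio of AT1G11860 to GLDP1 was 2.73, 2.94 and 3.12 in doxycycline libraries and 1.36, 0.759 and 0.668 in controls 1 to 3. The ratio of SHM1 to GLDP1 was 5.40, 5.04 and 6.58 in doxycycline libraries and 3.46, 1.16 and 1.43 in controls. That of mtLPD1, whose own groups overlapped, to GLDP1 was 0.534, 0.567 and 0.601 in doxycycline libraries and 0.392, 0.298 and 0.217 in controls. In all 3 ratios every doxycycline library lay above every control, and control 1 lay nearer to the doxycycline libraries than the other controls did. For AT1G11860 and SHM1 the separation had to follow, since both lay above every control and GLDP1 below. These ratios were chosen from the values of the genes themselves, so they are a description, with no test.

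**Figure D3:**
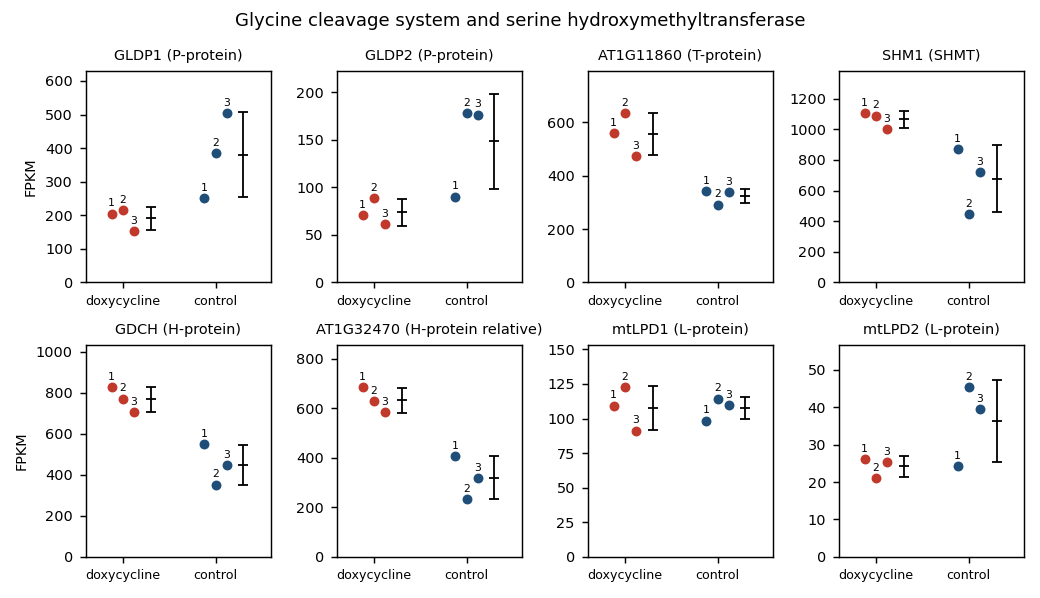
FPKM of the glycine cleavage subunits and of SHM1 (serine hydroxymethyltransferase, SHMT) in doxycycline and control libraries, each point a library with its replicate number, and beside them the mean with its SD (n = 3). GLDP1 and GLDP2 are lower with doxycycline, AT1G11860, SHM1, GDCH and AT1G32470 are higher, and mtLPD1 and mtLPD2 overlap.

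The windows before the starts of GLDP1, GLDP2 and AT1G11860 are shown because these genes of 1 complex lay on opposite sides of the controls. They are chr4:15931423-15931672 on the minus strand, chr2:11114292-11114541 on the minus strand and chr1:4000863-4001112 on the plus strand of TAIR10.1, each read 5′ to 3′, with the G-box CACGTG and the I-box GATAAG of either strand in capitals.
GLDP1: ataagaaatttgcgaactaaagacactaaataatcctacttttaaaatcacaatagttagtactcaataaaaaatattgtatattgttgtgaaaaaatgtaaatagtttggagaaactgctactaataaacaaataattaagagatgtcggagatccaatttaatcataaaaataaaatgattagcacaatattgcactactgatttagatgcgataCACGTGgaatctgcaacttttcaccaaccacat
GLDP2: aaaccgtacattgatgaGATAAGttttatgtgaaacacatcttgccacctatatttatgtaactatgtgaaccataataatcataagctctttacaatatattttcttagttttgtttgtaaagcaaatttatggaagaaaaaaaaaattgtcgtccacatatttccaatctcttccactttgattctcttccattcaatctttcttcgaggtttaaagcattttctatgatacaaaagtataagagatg
AT1G11860: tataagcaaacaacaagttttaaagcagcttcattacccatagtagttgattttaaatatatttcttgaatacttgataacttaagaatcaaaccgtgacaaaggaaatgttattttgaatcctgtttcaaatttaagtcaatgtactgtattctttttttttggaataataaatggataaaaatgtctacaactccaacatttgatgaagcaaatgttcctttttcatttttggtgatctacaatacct

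GLDP1 held 1 G-box, whose outer edge lay 33 bases before the annotated start, and no I-box. GLDP2 held 1 I-box, 233 bases before the start, and no G-box. The window of AT1G11860 held neither. Of the 15 windows of members above every control, 1 held a G-box and 2 an I-box. Of the 3 windows of members below every control, RBCS2B and GLDP1 held a G-box, and RBCS2B and GLDP2 an I-box. The windows differ in kind. Annotated exons covered 250 bases of the GAPA window, 237 of PGK1 and of AT1G80380 and 214 of GDCH. They covered 0 bases of HCEF1, RPE, CP12-1, GS2 and AT1G11860, and 0 of RBCS2B, GLDP1 and GLDP2. With so few windows, and transcribed sequence in part of them, these counts are a description only.

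The shares of isoforms and paired subunits in their summed FPKM do not depend on a scaling factor per library either, though quantile normalization can change them. With 3 against 3 libraries the smallest exact permutation p is 0.1, so no share could pass 0.05. GAPA made up 50.4%, 51.6% and 53.8% of GAPA plus GAPB with doxycycline and 59.5%, 57.4% and 58.0% in controls, means of 51.9% ± 1.69 and 58.3% ± 1.09 (SD, n = 3 each, two-sided exact permutation p = 0.1, 0.233 adjusted over 7 shares). RBCS1A made up 65.6%, 66.7% and 66.1% of the small subunit FPKM with doxycycline and 63.7%, 64.1% and 57.7% in controls, and FBA1 25.7%, 25.1% and 26.3% of both aldolases with doxycycline and 27.0%, 43.6% and 40.1% in controls. These 3 shares did not overlap between the groups (exact permutation p = 0.1 for each), although the FBA1 share of control 1 lay close to those with doxycycline. The shares of PGK1, CP12-2, GLDP1 and GOX1 overlapped, with exact permutation p-values of 0.2, 0.5, 0.9 and 0.4. The sum for the GAPA share left out GAPA-2 (AT1G12900), at a mean of 800 FPKM with doxycycline and 447 FPKM in controls.

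**Figure D4:**
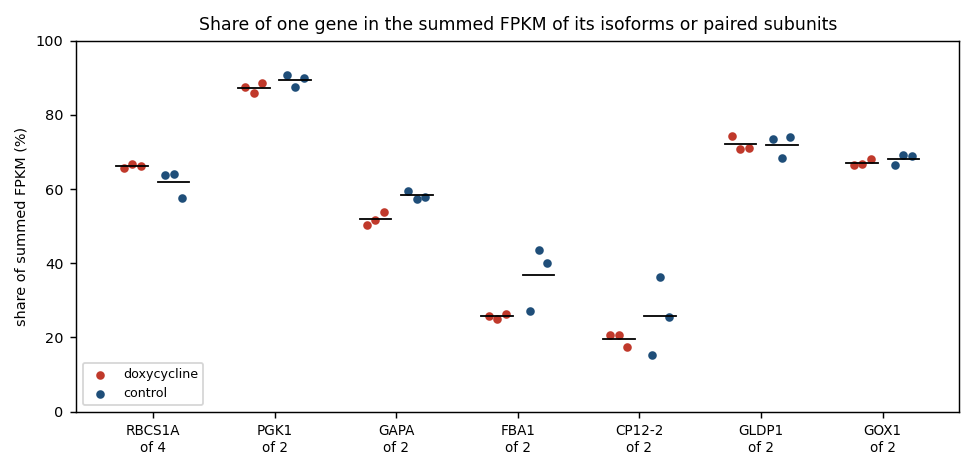
Share of 1 gene in the summed FPKM of its isoforms or paired subunits in each library, in percent, with red points for doxycycline and blue points for control libraries, black lines for group means and the number of genes in the sum under each name. The GAPA share is 50.4% to 53.8% with doxycycline and 57.4% to 59.5% in controls.

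Further genes of these pathways were read from lists put together from general knowledge. Their counts, on the deposited scale, stand beside 9.59% of all genes above every control and 25.7% below. These shares of all genes moved to 18.0% and 17.2% after median-of-ratios scaling, where the lists were not counted. Of 9 genes of the thioredoxin system, which activates several Calvin cycle enzymes in the light, 5 lay above every control and 0 below. TRXF1 (AT3G02730), for an f-type thioredoxin, stood at 385, 428 and 346 FPKM with doxycycline, against 231, 136 and 126 FPKM in controls (log2 difference 1.27, SE 0.279, adjusted p = 0.126). FTRA2 (AT5G08410), for a subunit of ferredoxin-thioredoxin reductase, stood at 232.8, 233 and 238 FPKM with doxycycline, against 142, 36.7 and 39.4 FPKM in controls (log2 difference 1.97, SE 0.497, adjusted p = 0.132). The list median was 0.72 log2.

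Of 10 genes for Rubisco folding and assembly, 4 lay above every control and 0 below, with a median of 0.86 log2. The co-chaperonin gene CPN20 (AT5G20720) stood at 525, 467 and 409.8 FPKM with doxycycline, against 229.95, 268 and 258 FPKM in controls, and the chaperonin gene CPN60B (AT1G55490) at 168, 204 and 147 FPKM against 111, 86.6 and 91.2 FPKM. Their log2 differences were 0.88 (SE 0.211, adjusted p = 0.128) and 0.83 (SE 0.206, adjusted p = 0.131). RbcX1 (AT4G04330), a Rubisco chaperone named after its values were seen, stood at 66.4, 76.8 and 86.0 FPKM with doxycycline, against 107, 2.04 and 1.92 FPKM in controls. For RbcX1, control 1 was above the doxycycline libraries and both other controls were far below them.

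Most isoforms outside the photosynthetic cycle overlapped between the groups, as did 12321 of all 19035 genes tested. Of 14 cytosolic or non-photosynthetic isoforms of Calvin cycle reactions, 1 lay above every control and 1 below, and the median was -0.19 log2. The gene above was FBP (AT1G43670), for the cytosolic fructose bisphosphatase of sucrose synthesis, at 218, 247 and 190.5 FPKM with doxycycline and 159.7, 71.9 and 82.7 FPKM in controls (log2 difference 1.14, SE 0.321, adjusted p = 0.138). The gene below was RSW10 (AT1G71100), for a ribose 5-phosphate isomerase, at 14.8, 11.6 and 10.7 FPKM with doxycycline and 17.04, 37.1 and 26.6 FPKM in controls (log2 difference -1.01, SE 0.299, adjusted p = 0.140). EMB3119, for the isomerase among the 35, was on the other side of the controls. Of 5 further plastid isoforms 2 lay above every control and 1 below. Among them GAPA-2 (AT1G12900) stood at 803.5, 919.8 and 677 FPKM with doxycycline, against 486, 354 and 501 FPKM in controls. TKL2 (AT2G45290) stood at 2.46, 3.15 and 3.19 FPKM with doxycycline, against 3.52, 28.3 and 16.2 FPKM in controls.

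Of 17 other photorespiratory isoforms, 5 lay above every control and 1 below, with a median of -0.00 log2. PMDH2 (AT5G09660), for peroxisomal malate dehydrogenase, stood at 1221, 1356 and 1074 FPKM with doxycycline, against 695, 479 and 758 FPKM in controls (log2 difference 0.94, SE 0.296, adjusted p = 0.144). The gene below was the catalase gene CAT3 (AT1G20620), named after its values were seen, at 427, 471 and 606 FPKM with doxycycline and 1401, 885 and 684 FPKM in controls. Of 6 transporters, 3 lay above every control and 2 below, the lower count being near the 25.7% of all genes. BOU (AT5G46800), for a mitochondrial carrier, stood at 100.3, 119 and 88.3 FPKM with doxycycline, against 44.2, 74.8 and 56.8 FPKM in controls, and DIT2.1 (AT5G64290), for a dicarboxylate transporter, at 48.3, 43.5 and 38.3 FPKM against 24.5, 28.4 and 28.5 FPKM.

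Of 5 transcription factor genes of greening and light responses, 0 lay above every control and 2 below, against 25.7% of all genes below. The GATA factor genes GNC (AT5G56860) and CGA1 (AT4G26150) stood at 6.21, 8.25 and 7.41 FPKM and at 4.64, 3.43 and 3.35 FPKM with doxycycline, against 8.82, 21.5 and 25.8 FPKM and 5.59, 26.2 and 14.3 FPKM in controls. GLK1 (AT2G20570), named after its values were seen, stood at 45.3, 49.8 and 44.6 FPKM with doxycycline, against 43.7, 85.3 and 161 FPKM in controls. In these 3 genes control 1 was the lowest control and lay closest to the doxycycline libraries.

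**Figure D5:**
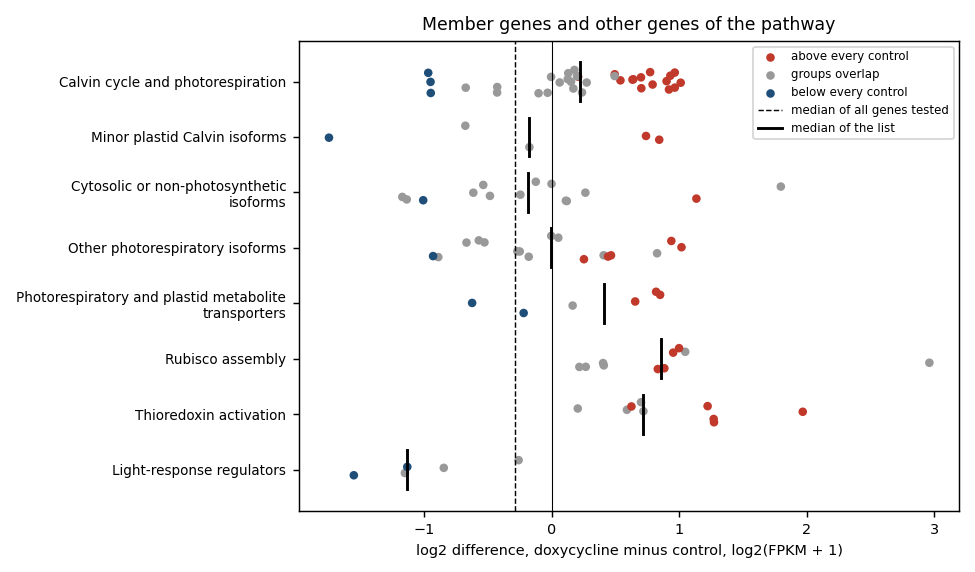
Log2 difference, doxycycline minus control on the log2(FPKM + 1) scale, of the 34 tested member genes and of 7 further lists of the pathway, each point a gene coloured by whether its groups overlap. Short lines are list medians and the dashed line is the median of all genes tested, -0.29.

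How far the doxycycline libraries stood from the controls depended on the control. The 34 members had a median log2 difference of 0.26 from control 1 (all genes -0.00), of 0.56 from control 2 (all genes -0.54) and of 0.15 from control 3 (all genes -0.30). All doxycycline libraries lay above control 1 in 21 members (37.0% of all genes) and below it in 6 (36.9% of all genes). They lay above control 2 in 23 members (21.6% of all genes) and below it in 6 (68.9%), and above control 3 in 18 (27.1%) and below it in 11 (59.3%). These comparisons share the doxycycline libraries.

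The limma calls of members changed when control 1 was left out. With all controls 0 members were called, and the cause of the change was not tested. Without control 1 there were 13 members higher (9.77% of all genes tested) and 4 lower (35.6% of all genes), the lower ones being GLDP1, GLDP2, FBA1 and CAT2. With control 1 as the only control, whose spread is then taken from the doxycycline libraries, GAPB, EMB3119, AT1G80380 and GS2 were higher (6.78% of all genes) and RBCS2B was lower (4.75% of all genes). These 4 higher members were also called without control 1, but both fits share the doxycycline libraries, so neither is an independent check of the other. With control 1 alone there is no spread among controls, so those calls describe the genes and are not a test. The 4 lay above every control under each scaling, and each scaling used the same libraries.

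Scaling moved the balance of directions. After median-of-ratios scaling 14 members lay above every control (18.0% of all genes) and 1 below (17.2%), and after quantile normalization 10 lay above (17.2%) and 4 below (16.7%). The median of all genes was 0.00 and 0.01 log2 under these scalings and -0.29 as deposited. Under all 3 scalings 10 members lay above every control, namely AT1G56190, GAPB, HCEF1, EMB3119, CP12-2, AT1G80380, GS2, AT1G11860, GDCH and SHM1, and 1 below, GLDP1. The share of all genes that did so under all 3 scalings was not computed. It cannot exceed the smallest share under a single scaling, 9.59% above and 16.7% below.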

How the data were processed

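Libraries of TRIzol-extracted seedling RNA were prepared with a VAHTS V6 kit, per the labels' protocols. The authors deposited 1 table of FPKM values with 1 column per library. TopHat2 2.1.0, Cufflinks 2.2.1 and the TAIR10 genome are named in the submitters' processing notes, with no role or order. The header gives no unit, which was read from decimals and unequal column sums. The sources used here name no strand setting and no rule for shared reads. An exact 0 can be a failed estimate.

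The step between low FPKM values of genes with 1 transcript model put depth at 18600000 to 21900000 fragments per library. Only 48.9% to 61.1% of those values were whole reads within 0.08, so no count model was run.

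Values were analysed as log2(FPKM + 1) for the 19035 genes averaging 1 FPKM or more, which understates changes of low genes. Limma 3.58.1 in R 4.3.3 compared 3 doxycycline with 3 control libraries, with an abundance trend and no covariate, two-sided, adjusted over all genes (threshold 0.05). It was also run on simulated data in which every library had the spread of the doxycycline libraries. The median log2 SD of all genes tested was 0.131 there and 0.459 in controls, so that run does not cover the unequal spread here. Isoform shares used exact permutation tests. Names, coding sequences and upstream windows came from RefSeq TAIR10.1, in which all 35 genes were found. It is not the build the submitters name, and the table holds no coordinates. Coding sequences were aligned globally with the longest annotated model. All 35 genes may be named, and from each further list the 2 with the lowest p, with others marked as chosen after their values were seen. Members, lists and tests were chosen with earlier results of these data known.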

Additional observations from a re-analysis of the deposited data

How the results depend on the processing

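On the deposited scale limma called 0 genes and 0 members, with 1301 genes higher and 3575 lower at an unadjusted p under 0.05. The count was 7 genes with no filter on low values, 8637 without control 1, 2 without control 3, and 2194 with control 1 as the only control, and otherwise 0. Members called were 0 to 17 when 1 library was left out, the highest without control 1, and 5 with control 1 as the only control. Members above every control numbered 15 to 18 and members below 3 to 6 when 1 library was left out. Both counts were highest without control 1, where 3035 of all 19035 genes tested lay above every control and 10090 below. With control 1 as the only control there were 21 members above (37.0% of all genes) and 6 below (36.9%). Below every control there was 1 member after median-of-ratios scaling (17.2% of all genes). The median difference of the members was 0.16 to 0.36 when 1 library was left out. After median-of-ratios scaling it was 0.55, and 1.197 and 0.51 against controls 2 and 3. After quantile normalization it was 0.073, beside 0.01 for all genes tested. Against controls 1 to 3 the members then stood at 0.12, 0.18 and 0.12, beside -0.011, -0.0062 and 0.064 for all genes tested. The cause was not tested.

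Some log2 differences changed sign. With control 1 as the only control, RBCS1A was at -0.30, RBCS1B 0.41, RBCS3B -0.32, RCA 0.39, TIM -0.046, FBA1 0.25, PRK -0.13, GOX1 0.079, GOX2 0.030, CAT2 0.47, AGT -0.034, mtLPD1 0.12, GLK1 0.088, RbcX1 -0.49, FBA5 -0.29 and the root markers RHD6 and MYB36 0.28 and 0.20. After median-of-ratios scaling RCA was at 0.33, GOX1 0.23, GOX2 0.30 and mtLPD1 0.33. After quantile normalization RBCS1A was at -0.92, RBCS3B -0.55, FBA2 -0.72, PRK -0.014, GGT1 -0.31, HPR -0.031 and mtLPD1 0.0089. When 1 library was left out, the differences that changed sign ran from -0.15 to 0.38 for RBCS1A, -0.23 to 0.52 for RBCS3B, -0.20 to 0.25 for RCA, -0.083 to 0.33 for FBA2, -0.026 to 0.25 for PRK, -0.20 to 0.013 for GOX1, -0.11 to 0.084 for GOX2, -0.080 to 0.30 for HPR and -0.10 to 0.11 for mtLPD1. The difference in the GLDP1 share ran from -1.69 to 1.18 percentage points.

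The replicate numbers did not pair the libraries: deviations of same-numbered libraries correlated at -0.00, -0.01 and -0.14. With the replicate block limma called 0 genes and 0 members, with a lowest adjusted p among members of 0.143. Depth limits low genes such as PGLP1, and counts were not available for intervals.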

Other observations

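The doxycycline libraries, though close to each other, differed in level over most of these genes. Doxycycline library 3 was the lowest of the 3 for 32 of the 34 members and library 2 the highest for 28. The same order was not counted over all genes, so it cannot be read as particular to the members. The 35 genes took up 5.37%, 5.79% and 4.41% of all FPKM in doxycycline libraries 1 to 3 and 5.31%, 3.89% and 5.94% in controls 1 to 3. The median SD of a member on the log2 scale was 0.181 between doxycycline libraries and 0.377 between controls, where all genes tested had 0.131 and 0.459. Replicates have no order in time or dose, and the source of this spread was not tested.

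Ratios between further genes, chosen after the values were seen, are given without a test. The ratio of GAPB to PRK was 2.13, 2.24 and 1.71 in doxycycline libraries and 0.899, 1.28 and 1.12 in controls 1 to 3. The ratio of GAPB to RCA was 0.431, 0.440 and 0.415 in doxycycline libraries and 0.275, 0.219 and 0.157 in controls. In both, every doxycycline library lay above every control. The ratio of CAT2 to CAT3 overlapped between the groups, at 1.18, 1.22 and 0.628 in doxycycline libraries and 0.247, 0.817 and 1.58 in controls.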
